A study of Triticum aestivum with 23 samples.

Results

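The spring wheat cultivar Cadenza was compared with the null segregant *TaBRI1-NS* across 72961 of the 266760 genes in the deposited table. A gene was tested when it reached 0.5 TPM (transcripts relative to the library total, corrected for gene length) in at least 3 of the 8 libraries, 4 per genotype. Wheat gene models are annotated as high-confidence or, with an identifier ending in LC, as low-confidence, and 56138 high-confidence and 16823 low-confidence genes were tested. Cadenza was not mutagenised, and served both as the source of the mutagenised lines and as the recurrent parent. *TaBRI1-NS* was selected as wild type at all 3 *TaBRI1* loci from a selfed population. That population came from intercrossing 3 ethyl methanesulfonate lines of Cadenza, each with a stop codon in a different *TaBRI1* homoeologue, followed by backcrosses to Cadenza. Both genotypes therefore carry functional *TaBRI1*, and neither received a treatment. The above-ground tissue of seedlings at the 2-leaf stage, grown at 21 ℃ in 24 h light, was collected, and each library came from several pooled seedlings. The comparison asks how far the wild-type control of the mutant series differs from the parental cultivar. The remaining 15 libraries of the 23 hold the double mutant *tabri1-bd* and the triple mutants *tabri1-a1bd*, *tabri1-a2bd* and *tabri1-a3bd*, and are used only to set levels side by side. No batch is given in the labels.

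Bread wheat is hexaploid, so most genes have homoeologues on the A, B and D genomes. Brassinosteroids (BRs) are steroid hormones that promote cell elongation, and in Arabidopsis and rice they are perceived at the cell surface by the receptor kinase BRI1 with its co-receptor BAK1. BR binding releases the inhibitor BKI1, inactivates the kinase BIN2 and allows BZR transcription factors to act. Mutagenesis with ethyl methanesulfonate places point mutations across the whole genome, and backcrossing replaces mutagenised chromosome segments with those of the recurrent parent. A null segregant shares its crossing history with the mutant lines of the same population, here *tabri1-bd* and *tabri1-a1bd*. The paper obtained *tabri1-a2bd* and *tabri1-a3bd* from a further mutagenesis of *tabri1-bd*, and crossed them to *tabri1-bd*.

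The libraries held 27451986 to 37258981 whole reads in *TaBRI1-NS* and 29611994 to 38288584 in Cadenza, as recovered from the TPM steps. Pearson's r of log2 TPM across genes was 0.953 to 0.973 within Cadenza, 0.954 to 0.961 within *TaBRI1-NS* and 0.939 to 0.957 between the genotypes. These values are across genes within a pair of libraries and serve as descriptions. The first principal component of the 500 most variable genes held 54.1% of the variance and separated the genotypes. Cadenza replicate 1 stood apart on the second component (23.3, against −12.9 to 3.45 in the other Cadenza libraries) and had the lowest array weight (0.574, against 1.35 to 1.81 in the other Cadenza libraries). Leaf marker genes were not checked, because gene names were used here for the BR list alone.

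Of the high-confidence genes, 1024 were differentially expressed (DEGs) at an adjusted p of 0.05 or less in limma, which is 1.82% of those tested (2.73% over all genes). A total of 673 were higher in Cadenza (1.20%) and 351 lower (0.625%). The differences were mostly small, with a median of 0.65 on the log2 scale among the higher genes and −0.66 among the lower. Only 109 of the higher and 111 of the lower genes differed by over 2-fold. Each fold change is on the log2(TPM + 0.5) scale, which understates changes of weakly expressed genes. In bulk tissue, fewer cells of a type and less RNA per cell cannot be told apart.

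The direction of the high-confidence DEGs depended on the scaling. The median log2 difference of all tested genes was 0.10 (Cadenza minus *TaBRI1-NS*), and 61.0% of high-confidence genes lay above 0. After TPM were rescaled by median-of-ratios size factors, which moved that median to 0.00, 305 high-confidence DEGs were higher in Cadenza and 763 lower. The count also depended on single libraries. It was 558, 334, 257 and 258 without Cadenza replicates 1, 2, 3 and 4, and 632, 410 and 386 without *TaBRI1-NS* replicates 2, 3 and 4.

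The low-confidence genes differed more often and mainly one way. A total of 965 were DEGs (5.74%), of which 891 were higher in Cadenza (5.30%) and 74 lower (0.440%). The median log2 difference was 0.28 over all low-confidence genes tested and 0.86 over the DEGs higher in Cadenza, of which 345 exceeded 2-fold. This direction held after rescaling, with 501 higher and 104 lower. Without Cadenza replicates 1, 2, 3 and 4 the count of low-confidence DEGs was 540, 400, 290 and 275, and without *TaBRI1-NS* replicates 3 and 4 it was 498 and 413. Between 86.2% and 93.8% were higher in Cadenza whichever library was left out.

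**Figure D1:**
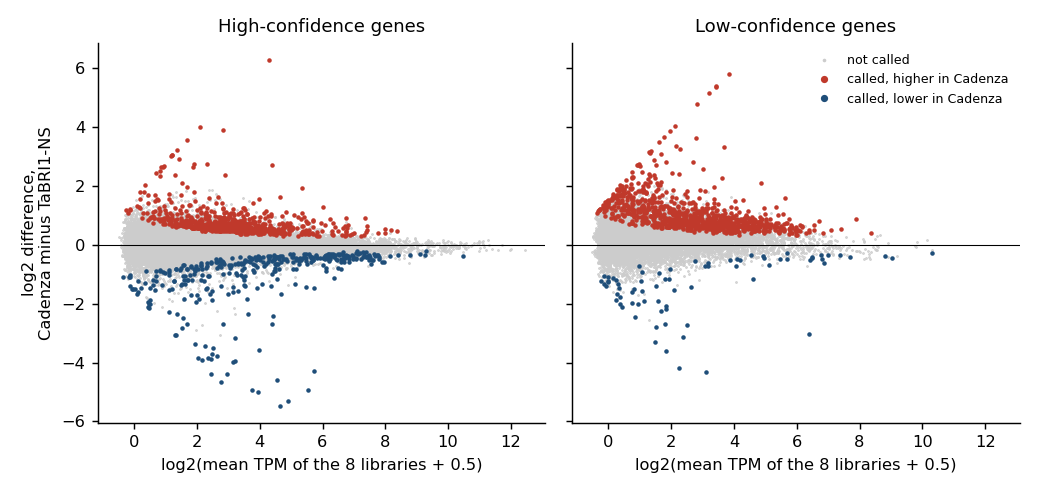
Log2 difference of each tested gene (Cadenza minus *TaBRI1-NS*, log2(TPM + 0.5) scale) against its log2 mean level, for high-confidence genes (left) and low-confidence genes (right). Red points are the 673 and 891 DEGs higher in Cadenza, blue points the 351 and 74 lower, and grey points the genes that did not pass the test.

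The excess of low-confidence genes was present at each expression level. Among genes with a mean under 2 TPM, 2.43% of low-confidence and 0.457% of high-confidence genes were DEGs higher in Cadenza. At 2 to 10 TPM the shares were 6.20% and 1.44%, and at 10 TPM or more they were 14.0% and 1.65%. The share of low-confidence genes lower in Cadenza stayed between 0.309% and 1.18%. The high-confidence gene nearest to each low-confidence DEG in identifier order was looked at as well. These neighbours were not chosen on their own values, so a smaller difference than in the DEGs follows from the choice. Next to the 891 low-confidence DEGs higher in Cadenza, these neighbours had a median log2 difference of 0.14, and 5.95% were themselves DEGs higher in Cadenza. Next to all tested low-confidence genes the median was 0.10 and the share 1.80%.

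Low-confidence genes took 11.85%, 12.04%, 11.99% and 12.27% of the summed TPM in the 4 Cadenza libraries. In *TaBRI1-NS* they took 10.89%, 10.73%, 10.64% and 10.05%. The genotypes did not overlap, and the means were 12.04% ± 0.173 and 10.57% ± 0.366 (SD, n = 4). The difference of 1.46 percentage points had a two-sided exact permutation p of 0.029, the smallest that 4 libraries against 4 allow, and 0.044 after Benjamini-Hochberg adjustment over 3 such measures. The number of low-confidence genes at 0.5 TPM or more was also higher in all 4 Cadenza libraries (15600 to 16307, against 14083 to 14905, exact permutation p = 0.029, adjusted p = 0.044). The number of high-confidence genes at that level overlapped between the genotypes (53560 to 54953, against 53205 to 54279, exact permutation p = 0.143, adjusted p = 0.143).

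**Figure D2:**
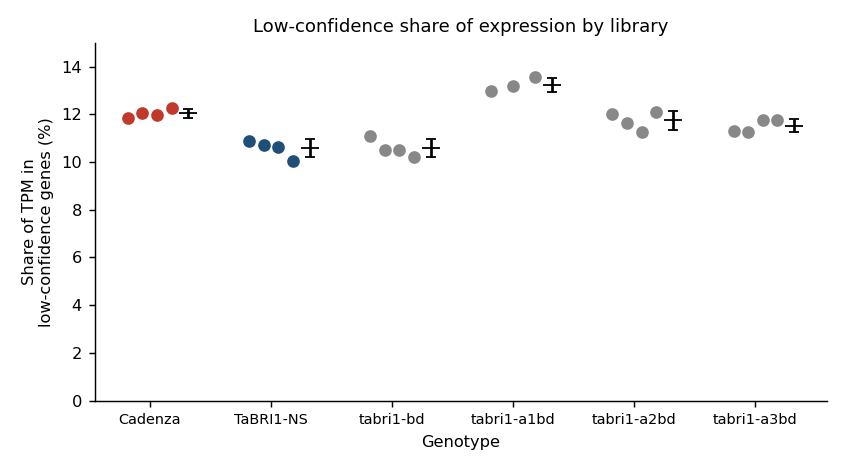
Share of summed TPM in low-confidence genes (%, vertical axis) in each library of the 6 genotypes, with the mean and SD beside the points. The 4 Cadenza libraries lie between 11.85% and 12.27%, above the 4 *TaBRI1-NS* libraries at 10.05% to 10.89%, and *tabri1-a1bd* is highest at 12.96% to 13.55%.

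None of the BR pathway genes differed between the genotypes in the limma test. The list held 76 genes named in the study, from sterol synthesis to the BZR transcription factors, of which 65 passed the filter and 0 were DEGs. Over all tested genes, 2.73% were. At an unadjusted limma p under 0.05 there were 5 of 65 BR genes, beside 14516 of the 72961 genes tested. Limma's voom on the recovered reads called 0 of the BR genes. The median log2 difference of the 65 was 0.09, beside 0.10 over all tested genes, and they spread from −0.33 to 0.53. On the log2(TPM + 0.5) scale, the 95% interval of 63 of the 65 differences lay within 2-fold in both directions. For weakly expressed genes that scale does not bound the fold in TPM. An example is TaDWARF4-4A, at 0.468 TPM in *TaBRI1-NS* (95% interval −0.63 to 0.34). The smallest adjusted p in limma was 0.18, and it ranged from 0.099 to 0.29 under the alternatives tried.

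The receptor gene *TaBRI1* did not pass the test in any of its 3 copies. *TaBRI1-A* (TraesCS3A03G0629800) measured 4.57, 4.90, 4.78 and 5.02 TPM in Cadenza and 4.89, 4.76, 4.41 and 3.90 in *TaBRI1-NS*. *TaBRI1-B* (TraesCS3B03G0712100) measured 3.66, 5.53, 5.55 and 6.05 TPM in Cadenza and 4.52, 3.30, 4.41 and 4.06 in *TaBRI1-NS*. *TaBRI1-D* (TraesCS3D03G0579600) measured 6.78, 7.27, 7.52 and 7.95 TPM in Cadenza and 7.08, 7.84, 5.73 and 6.70 in *TaBRI1-NS*. The libraries of the genotypes overlapped for all 3 homoeologues, and *TaBRI1-D* had the highest mean in both. The log2 differences were 0.09 (95% interval −0.15 to 0.34), 0.30 (−0.06 to 0.67) and 0.11 (−0.15 to 0.36) for the A, B and D copies. Their limma adjusted p were 0.68, 0.34 and 0.64, and after rescaling the A and D differences were −0.01 and −0.00.

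Sterol synthesis supplies the precursors of BRs. All 15 of its listed genes were tested, with differences from −0.12 to 0.40 and a median of 0.05. The 3 homoeologues of DWF7, a sterol desaturase, had a median difference of 0.05, and TaDWF7-D was the highest of the family at 58.7 ± 1.65 TPM in Cadenza and 56.5 ± 1.78 in *TaBRI1-NS* (SD, n = 4). The largest difference in the group was that of TaFACKEL1-B, a copy of the sterol reductase FACKEL, at 1.43 to 2.00 TPM in Cadenza and 0.920 to 1.51 in *TaBRI1-NS* (log2 0.40, limma adjusted p = 0.24).

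The BR-specific enzymes covered a wide range of levels. Of 27 listed genes 20 were tested, with Cadenza means from 0.382 TPM (TaDWARF4-4A) to 25.9 TPM (TaD2-A), and their log2 differences had a median of −0.00 and ran from −0.30 to 0.31. The cytochrome P450 genes TaCPD1-A, -B and -D, which act early in BR synthesis, were at 8.16, 11.9 and 7.01 TPM in Cadenza and 6.91, 10.4 and 7.20 in *TaBRI1-NS*. The limma adjusted p was at least 0.39 for each of the 20. The 3 DWARF4 copies on group 3 chromosomes and TaBR6ox1-B1 were listed at 0 in all 8 libraries. TaBR6ox1-B3 (TraesCS2B03G0038400), a copy of BR6ox1 that catalyses the last oxidation steps, was listed at 0 in all *TaBRI1-NS* libraries and reached 0.0273 TPM in 1 Cadenza library. No difference was detectable at that depth.

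No gene of perception or signalling passed the test, with medians of 0.23 over 11 tested perception genes and 0.12 over 19 signalling genes. The largest difference was in the co-receptor gene TaBAK1-B1, at 1.84 ± 0.453 TPM in Cadenza and 1.14 ± 0.486 in *TaBRI1-NS* (SD, n = 4, log2 0.53, 95% interval 0.02 to 1.04, limma adjusted p = 0.23). The more abundant TaBAK1-B2 measured 31.1, 30.8, 30.8 and 28.4 TPM in Cadenza and 25.5, 24.6, 29.6 and 23.7 in *TaBRI1-NS*. These overlap at 1 library of each genotype (log2 0.23, limma adjusted p = 0.18). TaBSU1-D, a phosphatase gene of the BSU1 family that acts on BIN2, did not overlap (4.51 to 5.31 against 3.52 to 4.46 TPM), with a log2 difference of 0.30 and an adjusted p of 0.19. Nor did TaBZR-D2 (5.48 to 6.31 against 3.84 to 5.47 TPM, log2 0.25, limma adjusted p = 0.30). These were the 2 of 65 tested BR genes without overlap, beside 13.7% of all tested genes. The 9 tested BZR genes had a median of −0.17, and TaBZR-D1 was lowest at −0.33 (adjusted p = 0.24). TaBZR-D4 (TraesCS6D03G0742700) was listed at 0 in *TaBRI1-NS* and at 0 to 0.170 TPM in Cadenza, and was not tested.

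**Figure D3:**
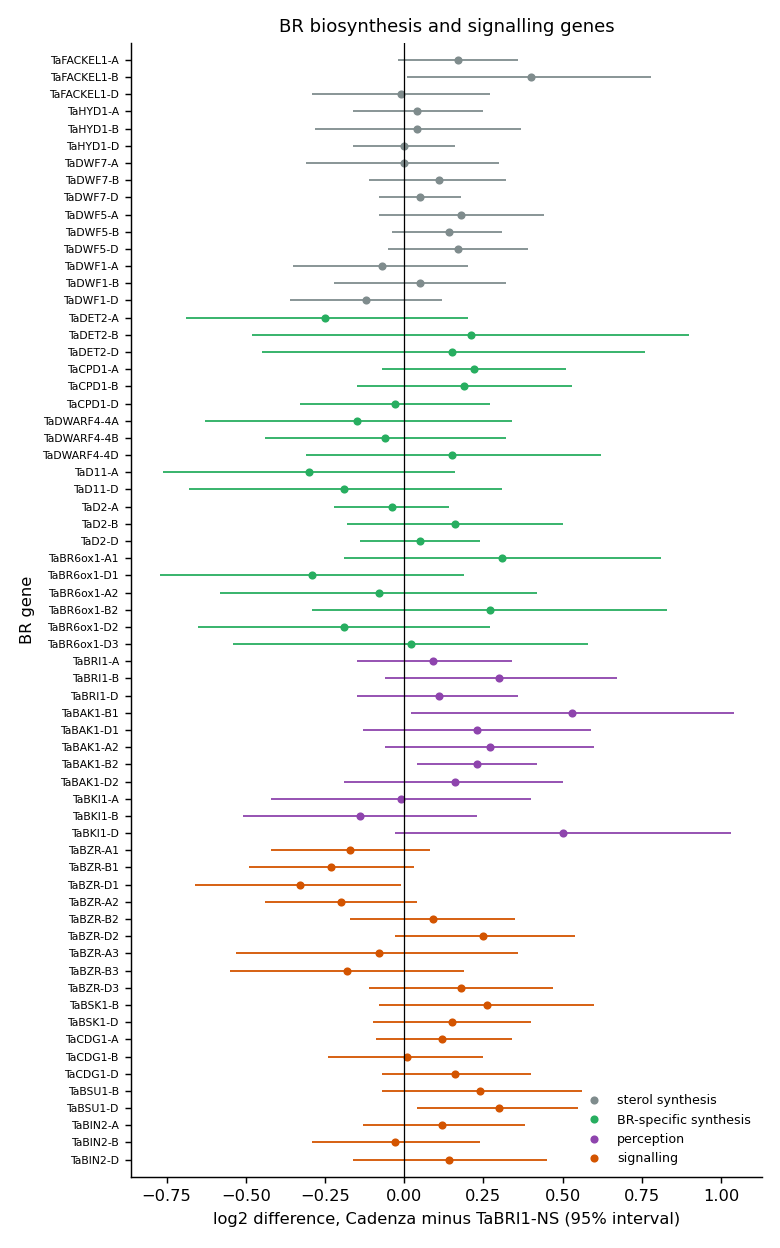
Log2 difference (Cadenza minus *TaBRI1-NS*) with its 95% interval for the 65 tested BR genes, coloured by group. The points lie between −0.33 and 0.53, and none of the genes passed the test.

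The genes around *TaBRI1* were also examined. Of the 100 tested genes nearest to each homoeologue in identifier order, 50 on each side, 2 were DEGs around *TaBRI1-A* on 3A, 4 around *TaBRI1-B* on 3B and 3 around *TaBRI1-D* on 3D. These shares of 2.00%, 4.00% and 3.00% stand beside 2.73% over all tested genes. All 9 were higher in Cadenza, as were 78.6% of all DEGs. Of the 9, 3 were low-confidence genes and 1 exceeded 2-fold. The median log2 differences of the neighbours were 0.07, 0.12 and 0.13. The count was 5, 3 and 4 without Cadenza replicates 2, 3 and 4, and 4 and 5 without *TaBRI1-NS* replicates 3 and 4.

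DEGs were found on every chromosome, at 1.05% (4B) to 3.26% (6B) of tested high-confidence genes and 3.65% (5A) to 7.33% (7B) of low-confidence genes. Large differences were less evenly spread. Chromosome 2B held 5.51% of the tested high-confidence genes but 32 of the 109 that were over 2-fold higher in Cadenza (29.4%) and 14 of the 111 over 2-fold lower (12.6%). Chromosome 5B held 13 of the 111 lower genes (11.7%), with 5.31% of tested genes. The identifier range of each chromosome was also split into 5 equal parts. From the first part to the last, 5.02%, 6.09%, 6.19%, 4.47% and 3.92% of low-confidence genes were DEGs higher in Cadenza.

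A run was defined as at least 10 DEGs with no more than 5 other tested genes between neighbours. Identifiers are numbered along each chromosome, so that order was used in place of base positions. There were 3 runs, 1 on chromosome 2B and 2 on 6B, which held 100 DEGs (65 high-confidence and 35 low-confidence, 5.03% of all DEGs). Without Cadenza replicate 3 or 4 no run was left on 6B, and the 2B run held 34 and 33 DEGs. Without Cadenza replicate 2 there were 49 DEGs in 2 runs, and without *TaBRI1-NS* replicates 3 and 4 there were 63 and 60 DEGs in 3 runs.

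The 2B run spanned TraesCS2B03G0051100 to TraesCS2B03G0080200, near the start of the chromosome, and 43 of its 60 tested genes were DEGs. Of 33 high-confidence DEGs, 27 were higher in Cadenza and 6 lower, and of 10 low-confidence DEGs, 9 were higher and 1 lower. Most of the higher genes were at or near 0 in *TaBRI1-NS*: 26 of 36 were under 10% of their Cadenza mean, and the median was 0.748%. The 50 tested genes before the run held 1 DEG and the 50 after it 10.

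The first DEG of the 2B run, TraesCS2B03G0051100, measured 3.13, 3.99, 1.84 and 2.42 TPM in Cadenza, and in *TaBRI1-NS* was at 0 in 3 libraries and 0.0263 in replicate 3. Its most abundant DEG, TraesCS2B03G0065500, was detected in both genotypes, at 191, 166, 173 and 176 TPM in Cadenza and 144, 153, 142 and 129 in *TaBRI1-NS* (log2 0.32 ± 0.07 SE, limma adjusted p = 0.046). That call was lost in 13 of 18 alternatives. TraesCS2B03G0075700 was lower but not absent in *TaBRI1-NS*, at 5.12, 4.42, 6.31 and 4.37 TPM against 36.7, 34.8, 34.4 and 36.5 (log2 2.71 ± 0.11 SE, limma adjusted p = 3.4e-06). The last member, TraesCS2B03G0080200, moved the other way (log2 −1.30 ± 0.26 SE, limma adjusted p = 0.036). It measured 0.496, 0.140, 0.229 and 0.0721 TPM in Cadenza and 1.77, 1.65, 1.06 and 0.790 in *TaBRI1-NS*. It passed the filter only through *TaBRI1-NS*, and its call was lost in 8 of 17 alternatives.

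Of the 6 high-confidence genes with the largest rise in Cadenza, 5 lay in the 2B run and were listed at 0 in every *TaBRI1-NS* library. TraesCS2B03G0065200 was the most abundant of them, at 40.8, 42.5, 31.6 and 38.7 TPM in Cadenza. TraesCS2B03G0075400 averaged 7.56 ± 1.61 TPM (SD, n = 4), and TraesCS2B03G0074900 measured 4.18, 6.03, 5.57 and 5.78. TraesCS2B03G0075800 measured 4.29, 3.48, 4.44 and 4.34 TPM, and TraesCS2B03G0061800 measured 3.65, 3.26, 3.54 and 4.13. Against a genotype at 0 the fitted log2 value depends on the 0.5 TPM added, so neither it nor a fold is given for these 5 genes. The sixth gene, TraesCS7D03G0591000 on 7D, measured 10.8, 14.9, 11.3 and 13.8 TPM in Cadenza and 0, 1.21, 0.117 and 0.690 in *TaBRI1-NS* (log2 3.88 ± 0.35 SE, limma adjusted p = 0.00087). All 6 calls held in each of the 18 alternatives. The 5 genes at 0 in *TaBRI1-NS* passed the filter only through Cadenza, so their test adds nothing to this choice.

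The 6B runs had a different form. The first spanned TraesCS6B03G0628000 to TraesCS6B03G0641800LC with 25 DEGs among 44 tested genes, and the second TraesCS6B03G0681100 to TraesCS6B03G0709700LC with 32 among 65. All 57 DEGs were higher in Cadenza, 32 of them high-confidence and 25 low-confidence. The median level in *TaBRI1-NS* was 45.4% of the Cadenza mean in the first run and 49.8% in the second, and 19 of 25 and 28 of 32 DEGs lay between 30% and 70%. The tested genes of these spans that were not DEGs leaned the same way, with 18 of 19 and 32 of 33 above 0. Their median log2 differences were 0.62 and 0.61. Over all tested genes 64.4% were above 0 and the median was 0.10. In the 93 tested genes between the runs, 9 were DEGs and the median was 0.36.

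The genes with the highest expression in the 6B runs show the size of the step. TraesCS6B03G0694200 measured 147, 131, 147 and 137 TPM in Cadenza and 65.8, 79.0, 68.1 and 86.6 in *TaBRI1-NS* (log2 0.91 ± 0.09 SE, limma adjusted p = 0.0018). TraesCS6B03G0704900 measured 93.4, 102, 91.9 and 101 TPM in Cadenza and 42.5, 57.9, 52.4 and 60.8 in *TaBRI1-NS* (log2 0.87 ± 0.11 SE, limma adjusted p = 0.0051). The first member of the second run, TraesCS6B03G0681100, measured 15.4, 13.6, 15.2 and 15.8 TPM against 4.91, 5.75, 7.56 and 6.37 (log2 1.24 ± 0.13 SE, limma adjusted p = 0.0019). In each of these the lowest Cadenza library was well above the highest *TaBRI1-NS* library, and the calls held in all 18 alternatives. Such a lack of overlap was found in 672 of the 673 high-confidence DEGs higher in Cadenza, and in 13.0% of all tested high-confidence genes. Among DEGs it follows largely from passing the test.

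In the first 6B run, TraesCS6B03G0637300 measured 64.2, 81.6, 82.5 and 74.8 TPM in Cadenza and 36.3, 46.2, 49.3 and 50.5 in *TaBRI1-NS* (log2 0.73 ± 0.12 SE, limma adjusted p = 0.017). TraesCS6B03G0628000, the first member, which the study's annotation table places at the thylakoid membrane, measured 55.5, 39.5, 42.9 and 41.5 TPM against 20.6, 18.3, 18.5 and 32.3 (log2 1.01 ± 0.18 SE, adjusted p = 0.025). These calls were lost in 3 and 9 of 18 alternatives, with adjusted p of up to 0.062 and 0.069. The last members of the runs were low-confidence genes with weak expression. TraesCS6B03G0641800LC was listed at 0 in *TaBRI1-NS* and at 0.515 to 1.31 TPM in Cadenza, and TraesCS6B03G0709700LC was at 1.47 to 2.45 and 3.49 to 3.91 TPM. Their calls were lost in 3 of 17 and 11 of 18 alternatives. TraesCS6B03G0641800LC passed the filter only through Cadenza.

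**Figure D4:**
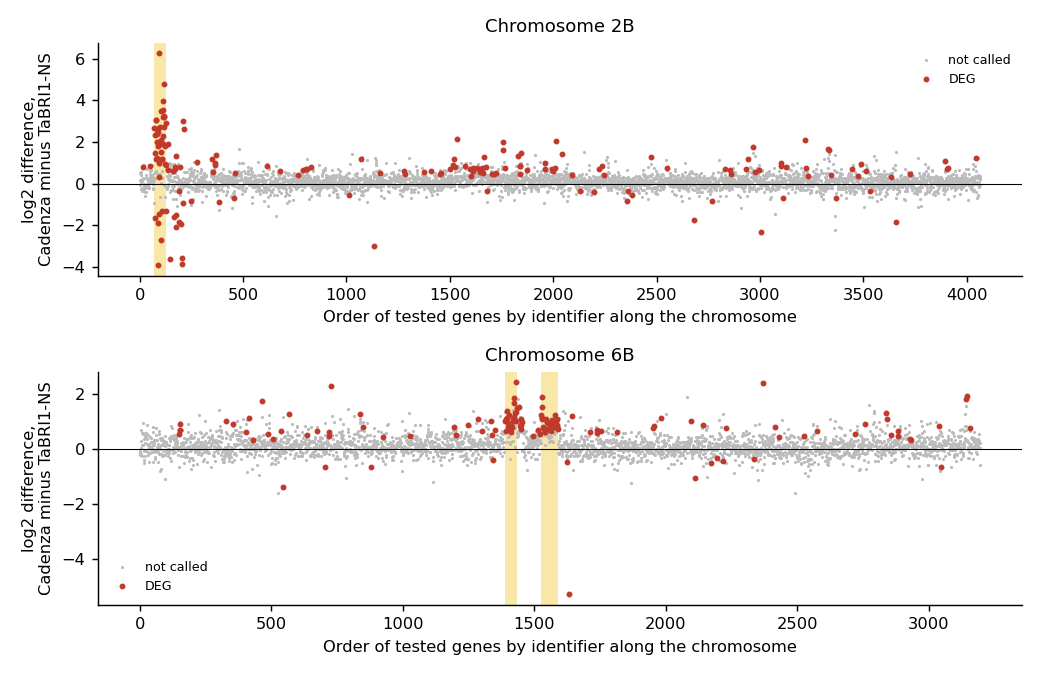
Log2 difference (Cadenza minus *TaBRI1-NS*) of every tested gene on chromosomes 2B and 6B in identifier order, with DEGs in red and the 3 runs shaded. The 2B run lies near the start of the chromosome and holds DEGs in both directions, and all DEGs in the 6B runs lie above 0, between 0.62 and 2.43.

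The levels of the DEGs higher in Cadenza were set beside the mutant lines, which took no part in the test. For the 36 genes of the 2B run, the median level was 0% to 0.462% of the Cadenza mean in the *TaBRI1-NS* libraries and at most 0.232% in those of *tabri1-bd*, *tabri1-a1bd* and *tabri1-a3bd*. In *tabri1-a2bd* it was 51.1% to 89.2%. For the DEGs of the 6B runs it was 0% in every *tabri1-a1bd* and *tabri1-a2bd* library. It was 36.3% to 50.8% and 44.1% to 49.0% in *TaBRI1-NS* for the first and second 6B run, 83.0% to 87.8% and 72.5% to 83.9% in *tabri1-bd*, and 85.1% to 91.9% and 89.6% to 98.5% in *tabri1-a3bd*. In the 6B runs the medians of the 4 *TaBRI1-NS* libraries thus lay between those at 0 and those near Cadenza. The intermediate position was partly fixed by choosing genes on the contrast. Single genes departed from the medians. In the 2B run, 0 to 4 of the 36 genes were under 5% of Cadenza in the *tabri1-a2bd* libraries. TraesCS2B03G0065200 averaged 1.05 TPM in *tabri1-a2bd*, against 38.4 in Cadenza. In the second 6B run, 27 of 32 DEGs were under 5% of Cadenza in *tabri1-a1bd* and *tabri1-a2bd*. TraesCS6B03G0704900 averaged 42.3 and 43.0 TPM in these lines, against 53.4 in *TaBRI1-NS*.

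Genes were also chosen on the mutant lines, a choice made after the values were seen. On 6B, 91 tested genes averaged at least 1 TPM in *tabri1-bd* and *tabri1-a3bd* and under 5% of that in *tabri1-a1bd* and *tabri1-a2bd*, and 90 of them lay between the start of the first run and the end of the second. Of the 91, 90 were above 0 in the contrast of Cadenza with *TaBRI1-NS* and 49 were DEGs, all higher in Cadenza. Over all tested genes 64.4% were above 0 and 2.73% were DEGs, of which 78.6% were higher in Cadenza. Their level in *TaBRI1-NS* had a median of 53.0% of Cadenza, with quartiles of 45.1% and 59.9%. Over the 90 genes the median was 44.9%, 54.4%, 53.3% and 56.7% in *TaBRI1-NS* replicates 1 to 4 and at least 95.8% in the Cadenza libraries. On 2B, 12 genes were present in *tabri1-a2bd* and under 5% of that in the other 3 mutant lines. All 12 lay in the run and were under 5% of Cadenza in *TaBRI1-NS*. A gene near 0 in *TaBRI1-NS* was tested only where Cadenza expressed it, so the direction of these 12 was set by the filter and is a description.

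**Figure D5:**
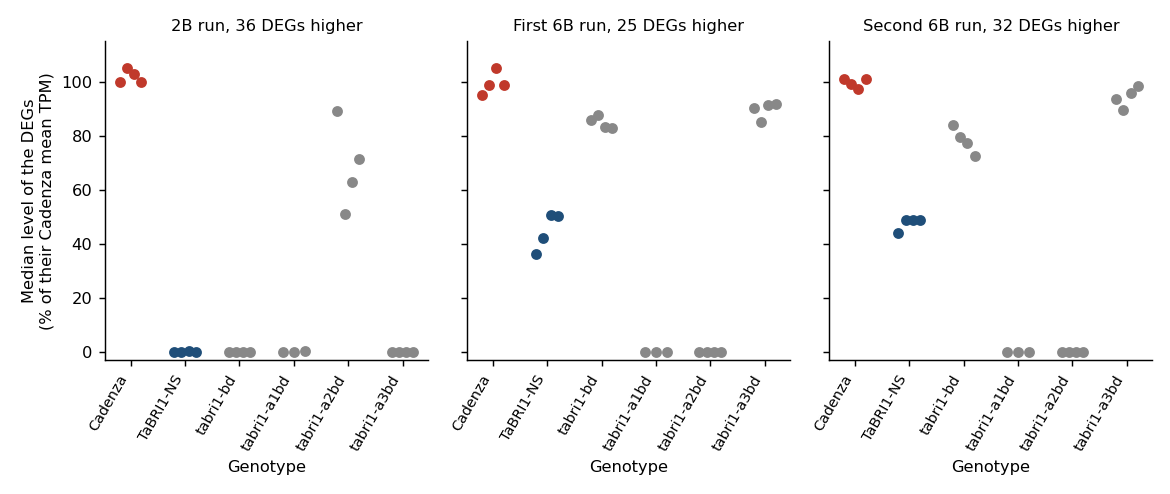
Median level of the DEGs higher in Cadenza (% of their Cadenza mean TPM, vertical axis) in each library of the 6 genotypes, for the 2B run and both 6B runs. *TaBRI1-NS* lies at 0% to 0.462% in the 2B run and at 36.3% to 50.8% and 44.1% to 49.0% in the 6B runs.

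Genes present in only 1 of the genotypes were counted with the same threshold in both directions. A total of 30 genes (12 high-confidence and 18 low-confidence) were at 0 TPM in all 4 *TaBRI1-NS* libraries and at 1 TPM or more in all 4 Cadenza libraries, and 10 genes (4 and 6) showed the reverse. Such genes passed the filter only through the genotype that expressed them, so their test adds nothing to this choice. Those present in Cadenza lay on 2B (16, of which 15 in the run), 5B (7), 1A (3), 7D (3) and 2D (1). Those present in *TaBRI1-NS* lay on 5B (4), 1B (2), 2B (2), 3A (1) and 7A (1). The first count rose to 33 and the second to 15 when up to 0.1 TPM was allowed in the genotype at 0. It was 17 for genes present in *TaBRI1-NS* without *TaBRI1-NS* replicate 2.

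Of the genes present in Cadenza and at 0 in *TaBRI1-NS*, 3 low-confidence genes had the largest differences of their class. TraesCS5B03G1177500LC measured 27.7, 31.8, 25.3 and 25.3 TPM in Cadenza, and averaged 26.4 TPM in *tabri1-a1bd*, 9.76 in *tabri1-a3bd*, 1.73 in *tabri1-a2bd* and 0 in *tabri1-bd*. TraesCS1A03G1023100LC measured 20.2, 22.4, 18.9 and 19.9 TPM in Cadenza and was at 0 in all other libraries of the series. TraesCS7D03G0483000LC measured 12.6, 22.0, 26.8 and 21.4 TPM in Cadenza and averaged at most 0.714 TPM elsewhere. Of the 30 genes, 22 were at 0 in all *tabri1-bd* libraries, 23 in *tabri1-a3bd*, 18 in *tabri1-a1bd* and 6 in *tabri1-a2bd*.

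In the other direction, TraesCS5B03G0022600 was at 0 in Cadenza, and its 4 *TaBRI1-NS* libraries held 16.2, 13.3, 9.19 and 11.1 TPM. It averaged 5.48 TPM in *tabri1-bd*, 9.45 in *tabri1-a2bd* and 11.6 in *tabri1-a3bd*, and 0 in *tabri1-a1bd*. TraesCS5B03G1181600LC was at 0 in Cadenza and at 7.57, 9.95, 7.51 and 9.37 TPM in *TaBRI1-NS*. TraesCS2B03G0086800LC, also at 0 in Cadenza, measured 4.53, 10.2, 5.83 and 3.74 TPM. Of the 10 genes, 6 were at 1 TPM or more in every *tabri1-bd* library, 6 in every *tabri1-a3bd* library, 5 in *tabri1-a1bd* and 3 in *tabri1-a2bd*.

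The other genes that were most reduced in Cadenza varied widely within *TaBRI1-NS*. TraesCS7A03G1289000 measured 46.8, 4.83, 36.7 and 105 TPM in *TaBRI1-NS* replicates 1 to 4 and 0, 0.285, 0.140 and 0.552 in Cadenza (log2 −5.46 ± 0.75 SE, limma adjusted p = 0.0082). TraesCS6B03G0723400 measured 35.8, 7.18, 26.4 and 162 TPM against 0.240 to 0.464, and TraesCS6A03G0594500 measured 18.9, 3.62, 15.6 and 79.8 against 0 to 0.286. TraesCS6D03G0493500 measured 74.7, 11.3, 58.6 and 219 TPM against 0.994 to 1.99. In all 4 genes replicate 2 was lowest and replicate 4 highest. Every *TaBRI1-NS* library was above every Cadenza library, which the rule for naming these genes required. With voom on the recovered reads these 4 were no longer called (adjusted p of 0.38 to 0.61), and in each other alternative they were. TraesCS6B03G0723400 and TraesCS6A03G0594500 passed the filter only through *TaBRI1-NS*, so their calls add nothing to this choice.

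TraesCS3B03G1434100 had the same library order apart from replicates 1 and 3, at 22.8, 11.8, 26.3 and 39.7 TPM in *TaBRI1-NS* and 0 in 3 Cadenza libraries and 2.34 in replicate 4 (log2 −4.93 ± 0.58 SE, limma adjusted p = 0.0037). The low-confidence TraesCS7A03G1289200LC, close to TraesCS7A03G1289000 in identifier order, measured 10.8, 1.27, 10.9 and 42.1 TPM against 0, a call lost in 6 of 18 alternatives, including the omission of any Cadenza library. Of the 25 high-confidence DEGs over 8-fold lower in Cadenza, 13 had *TaBRI1-NS* replicate 4 highest and replicate 2 lowest (52.0%). That order was found in 29 of the 111 over 2-fold lower (26.1%), in 6 of the 109 over 2-fold higher (5.50%) and in 5.63% of all tested high-confidence genes. In the mutant lines TraesCS7A03G1289000 averaged 42.3 TPM in *tabri1-bd*, 4.75 in *tabri1-a1bd*, 2.89 in *tabri1-a2bd* and 118 in *tabri1-a3bd*.

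The most abundant high-confidence DEGs were all lower in Cadenza, by small amounts. TraesCS2B03G0100400 measured 1355, 1209, 1209 and 1195 TPM in Cadenza and 1458, 1706, 1693 and 1552 in *TaBRI1-NS* (log2 −0.37 ± 0.07 SE, limma adjusted p = 0.024). TraesCS3A03G0385300 measured 479, 580, 582 and 517 TPM against 708, 656, 684 and 694 (log2 −0.35 ± 0.07 SE, limma adjusted p = 0.035). TraesCS3A03G0726200 measured 546 to 616 TPM against 662 to 692, and TraesCS3B03G0832600, annotated to the mitochondrial inner membrane, measured 455 to 538 against 583 to 662. The genotypes did not overlap for any of the 4 genes, nor for any of the 351 high-confidence DEGs lower in Cadenza. Of all tested high-confidence genes, 13.0% did not overlap. The calls were lost in 8, 10, 14 and 12 of 18 alternatives, in that order.

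An annotation table of the study gives gene ontology terms for some DEGs, and 25 DEGs with informative terms were chosen from it after their values were seen. The table covers only genes that differed in the mutants and is shortened, and how many tested genes carry each term was not analysed here. The values below therefore describe single genes and not groups. Among all high-confidence DEGs 673 of 1024 were higher in Cadenza, and 305 of 1068 after rescaling. None of the 25 genes changed direction under the alternatives, but most lost their call in some.

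The 7 chosen genes with terms for transcription elongation (3), ATP-dependent chromatin remodelling (3) and a histone acetyltransferase complex (1) were higher in Cadenza. Of the elongation genes, TraesCS3B03G0567600 measured 3.75 ± 0.221 TPM in Cadenza and 1.68 ± 0.416 in *TaBRI1-NS* (SD, n = 4, log2 0.99, limma adjusted p = 0.019). The remodeler gene TraesCS7A03G0477200 measured 11.8 to 12.5 TPM against 8.77, 7.91, 6.95 and 5.92 (log2 0.69 ± 0.12 SE, limma adjusted p = 0.021). These calls were lost in 4 and 5 of 18 alternatives. Those of the other elongation genes, TraesCS1A03G0773400 and TraesCS1D03G0772900, were lost in 10 and 6. Those of the remodeler genes TraesCS1A03G1079400 and TraesCS7B03G0290900 were lost in 12 and 10, and that of the acetyltransferase complex gene TraesCS2D03G0305300 in 9.

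Of the chosen genes, 4 carried a term for the mitochondrial inner membrane and were lower in Cadenza, as were 3 of 4 with a thylakoid membrane term and 2 with a term for systemic acquired resistance. TraesCS5D03G0237600, of the mitochondrial genes, measured 86.3 ± 5.25 TPM in Cadenza and 118 ± 4.25 in *TaBRI1-NS* (SD, n = 4, log2 −0.45, limma adjusted p = 0.0092). Its call was lost in 1 of 18 alternatives, and those of TraesCS3D03G0667800, TraesCS4A03G0256900 and TraesCS3B03G0832600 in 8, 9 and 12. TraesCS5D03G0237600 and TraesCS3D03G0667800 are paired with earlier identifiers on 5A and 3A (TraesCS5A02G088200 and TraesCS3A02G290400). Their term may therefore belong to a homoeologue, which was not checked. TraesCS2A03G0732900, of the thylakoid genes, measured 186 ± 10.9 and 236 ± 13.1 TPM (SD, n = 4, log2 −0.34, limma adjusted p = 0.027). Its call was lost in 6 of 18 alternatives, and those of TraesCS2B03G0808800 and TraesCS4D03G0479700 in 7 and 8.

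The resistance genes had larger differences. TraesCS1B03G0695700 measured 7.10, 4.57, 8.24 and 3.95 TPM in Cadenza and 10.2, 15.2, 14.3 and 10.2 in *TaBRI1-NS* (log2 −1.04 ± 0.23 SE, limma adjusted p = 0.048), a call lost in 13 of 18 alternatives. TraesCS1D03G0572300 measured 17.6, 15.8, 13.8 and 13.4 TPM in Cadenza and 26.1, 27.9, 31.7 and 28.3 in *TaBRI1-NS* (log2 −0.89 ± 0.10 SE, limma adjusted p = 0.0037), a call lost in 1 of 18.

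Of 5 chosen genes with a monooxygenase term, 2 were higher and 3 lower in Cadenza. TraesCS2B03G0105500 measured 0 to 0.0937 TPM in Cadenza and 7.77, 7.26, 5.79 and 8.06 in *TaBRI1-NS* (log2 −3.86 ± 0.16 SE, limma adjusted p = 2.5e-06), and TraesCS2D03G0046300 measured 0.111 to 0.214 against 4.38 to 7.84 TPM. Within the 2B run a pair of these genes moved in opposite directions. TraesCS2B03G0063800 was lower in Cadenza, at 7.52 ± 0.931 against 21.8 ± 4.18 TPM (SD, n = 4), and TraesCS2B03G0065300 was higher, at 25.1 ± 2.21 against 12.6 ± 2.95. The first 3 calls held in all 18 alternatives and that of TraesCS2B03G0065300 was lost in 1. TraesCS2B03G0105500 and TraesCS2D03G0046300 passed the filter only through *TaBRI1-NS*, so their calls add nothing to the levels given. The weakly expressed TraesCS7A03G0096500 measured 0.596 to 0.880 TPM in Cadenza and 0 to 0.0819 in *TaBRI1-NS*. It passed the filter only through Cadenza and lost its call in 6 of 17.

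Terpene synthases build terpenoid skeletons, and 3 of the chosen genes carried that term. TraesCS2B03G0063600 in the 2B run measured 0 to 0.0484 TPM in Cadenza and 4.04 to 9.58 in *TaBRI1-NS*. TraesCS2B03G1134500, elsewhere on 2B, was higher in Cadenza, at 64.3 ± 6.80 against 37.3 ± 5.89 TPM (SD, n = 4, log2 0.79, limma adjusted p = 0.014). Both calls held in all 18 alternatives, but TraesCS2B03G0063600 passed the filter only through *TaBRI1-NS*, so its call adds nothing to the levels given. TraesCS2B03G0390300 was also higher, at 19.3 to 22.1 against 9.01 to 14.4 TPM, and lost its call in 8 of 18.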

How the data were processed

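Above-ground tissue of 2-leaf seedlings was sequenced in 4 libraries each of Cadenza and *TaBRI1-NS*. The deposited values are TPM, which the authors made by trimming with Trimmomatic (0.39), aligning with STAR (2.7.8a) to IWGSC RefSeq v2.1 and counting with HTSeq (0.11.3). Read strand, gene lengths and HTSeq options are not given in the sources used here, so homoeologues and overlapping genes may share reads. The authors tested their counts with DESeq2. From the TPM, limma (3.58.1, R 4.3.3) was run with trend and robust settings on log2(TPM + 0.5), on the 8 libraries alone, with Benjamini-Hochberg adjustment over all 72961 genes, and an adjusted p of 0.05 or less marked a DEG. Whole reads were recovered from TPM steps for 99.88% of tested genes (whole within 0.02). On data simulated for this comparison over 72873 genes, the fit called 99 of 100 genes changed 4-fold, 63 of 100 changed 2-fold and 8 unchanged genes. The simulation gave every gene the same spread, changed only genes with more reads and held no shift between genotypes. Its rates therefore cannot be carried over to the real libraries. Read depth limits weakly expressed genes, and p-values cover the spread between libraries.

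The BR list, the gene groups and the other lists were chosen with earlier results of these data known. Genes were named by rule: *TaBRI1* and BR genes that were DEGs or at 0 in 1 genotype only, the DEGs without overlap with the largest differences (6 high-confidence and 3 low-confidence each way), the 4 most abundant high-confidence DEGs, and the first, last and 2 most abundant members of each run (up to 4 runs, of which 3 were found). Replicate numbers did not pair the libraries (correlation of deviations −0.05 to 0.06). No columns were left unused, and no libraries were identical. Alternatives covered pseudocounts of 0.1 and 1 TPM, filters, scaling, weights, a fit of all 23 libraries, a replicate block, voom on recovered reads, and leaving out each library.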

Additional observations from a re-analysis of the deposited data

Results flagged for a closer look

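In 5 of 98 groups of 4 libraries examined, 1 library lay far from the other 3 by Dixon's test at the 95% level, and chance alone flags about 1 in 20. TraesCS2B03G0075800 was low in Cadenza replicate 2, at 3.48 TPM against 4.29 to 4.44. TraesCS3B03G1434100 was at 2.34 TPM in Cadenza replicate 4 and 0 in the others. TraesCS2B03G0100400 was high in Cadenza replicate 1, at 1355 TPM against 1195 to 1209. TraesCS6B03G0628000 was high in *TaBRI1-NS* replicate 4, at 32.3 TPM against 18.3 to 20.6. TraesCS2B03G0065300 was high in *TaBRI1-NS* replicate 3, at 17.0 TPM against 10.7 to 11.5.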

How the results depend on the processing

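The BR list gave 0 calls in every alternative tried, and 23 of the 56 called genes named above kept their call in all 18 alternatives that could be tried on them. The log2 difference of TraesCS3A03G0629800 (*TaBRI1-A*) became −0.01 and that of TraesCS3D03G0579600 (*TaBRI1-D*) −0.00 after rescaling, and no other named gene changed direction. With no filter there were 503 high-confidence and 492 low-confidence DEGs, with 4 of the *TaBRI1* neighbours and 39 DEGs in runs. With the replicate block there were 236 and 292, with 3 neighbours and 34 DEGs in 1 run. The libraries share only a number, and the same-numbered pairs correlated at −0.05 to 0.06, so not every library correlated best with its own number (*TaBRI1-NS* replicate 3 reached 0.11 with Cadenza replicate 2). Requiring over 2-fold left 220 and 388 DEGs, 1 neighbour and 47 DEGs in runs. Voom on recovered reads gave 3042 high-confidence DEGs, 25 neighbours and 5 runs. Rescaled TPM gave 605 low-confidence DEGs. The share of high-confidence DEGs higher in Cadenza was 65.7% as reported, 28.6% after rescaling, 49.5% over 2-fold and 84.0% with all 23 libraries. There were 5 runs with a 2 TPM filter, 5 with a fit within each gene class, 6 with array weights and 7 when at least 8 DEGs sufficed, an alternative chosen after seeing the data. With at most 2 other genes between DEGs the runs held 47. Requiring 5 TPM left 9 genes present in Cadenza alone and 2 in *TaBRI1-NS* alone. Leaving out each library gave 257 to 983 high-confidence DEGs, 275 to 918 low-confidence DEGs, and 50.4% to 71.9% and 86.2% to 93.8% of them higher in Cadenza. It gave 3 to 7 neighbours, 1 to 4 runs, 33 to 83 DEGs in runs, 30 to 36 and 10 to 17 genes in 1 genotype alone, and a low-confidence share 1.28 to 1.56 percentage points higher in Cadenza. Of the 56 named calls, 9 to 26 were lost when 1 library was left out. These fits hold fewer libraries and so detect less.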

Other observations

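Shorter groups of DEGs, 8 or 9 long, were seen after the runs had been counted, and are given as values. On 5B, TraesCS5B03G0020200 to TraesCS5B03G0023200 held 8 DEGs among 10 tested genes, of which 7 were lower in Cadenza. TraesCS5B03G0020200 and TraesCS5B03G0020300 had log2 differences of −4.28 and −4.59. A second group on 5B, TraesCS5B03G1177500LC to TraesCS5B03G1183600, held 8 DEGs among 15, of which 3 were higher. On 2B, beyond the run, TraesCS2B03G0098400 to TraesCS2B03G0108400 held 9 DEGs among 25, of which 3 were higher. On 3B, TraesCS3B03G0562400LC to TraesCS3B03G0569200 held 8 among 19, and all were higher in Cadenza. The share of TPM in low-confidence genes also differed among the mutant lines, at 10.22% to 11.11% in *tabri1-bd*, 11.27% to 11.75% in *tabri1-a3bd*, 11.24% to 12.10% in *tabri1-a2bd* and 12.96% to 13.55% in *tabri1-a1bd*.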
